A study of Homo sapiens with 24 samples.

Results

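The m6A peaks of 10 transcripts that mark epithelial or mesenchymal identity were followed through human pancreatic differentiation. The epithelial transcripts were CDH1, EPCAM, KRT7, KRT8, KRT18 and KRT19, and the mesenchymal transcripts were CDH2, VIM, ZEB1 and ZEB2. A peak was taken when the gene ID given for it included the Ensembl ID of one of these genes, which gave 126 of 228472 peaks, on 10 of the 27089 genes that had a peak in any list. No such peak carried the ID of a further gene.

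The study asked how m6A on RNA changes as human pluripotent stem cells become pancreatic cells, and what loss of the m6A eraser ALKBH5 does at the progenitor stage. All 24 libraries came from human embryonic stem cells labelled MEL1, in the study's methods the MEL1 INSGFP/W reporter line with GFP at the insulin locus, with 2 immunoprecipitated (IP) and 2 input libraries for each of 6 populations. In batch 1, mRNA of wild-type cells was profiled from undifferentiated hPSC (grown on CF1 feeder cells), from definitive endoderm, called DE, from progenitors of the pancreas, called PP, and from islet-like organoids, called hILO, the last 3 made by stepwise differentiation that began with activin A and CHIR99021. In batch 2, WT PP were set against A5-KO PP, whose ALKBH5 was disrupted at the first exon with CRISPR-Cpf1 before colonies were picked. Batch 2 used total RNA, another antibody and another library kit, so reads, enrichment and sharing were compared within a batch only, and peak positions and numbers of the 2 batches are set side by side. The sources used here do not give the day on which each population was collected. Each population had 1 peak list, called on its 4 libraries together, so no value exists per library and no difference below has a replicate error or a test.

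CDH1 (E-cadherin) and CDH2 (N-cadherin) encode the calcium-dependent adhesion proteins of epithelial and of neural or mesenchymal cells. EPCAM is an epithelial adhesion protein, the keratins KRT7, KRT8, KRT18 and KRT19 build the intermediate filaments of simple epithelia, and VIM (vimentin) builds those of mesenchymal cells. ZEB1 and ZEB2 are zinc finger repressors that bind the promoter of CDH1 and lower its transcription when epithelial cells become mesenchymal. Cells pass through such a transition as they leave the pluripotent state for endoderm. m6A is written on adenines in a short consensus, lies mostly in long internal exons and around stop codons, and is removed from RNA by ALKBH5.

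Of the 10 transcripts, 5 carried a peak in all 6 lists, namely CDH1, EPCAM, KRT8, CDH2 and ZEB1. At the p-value limit of 1e-05 given in the study's methods, by the p of each peak's own row, 2 did, CDH1 and CDH2. In the order hPSC, DE, PP, hILO, WT PP and A5-KO PP, CDH1 had 4, 3, 2, 2, 7 and 3 peaks. CDH2 had 3, 4, 6, 3, 4 and 4 in the same order, and both cadherins were thus listed throughout. ZEB1 had 2 peaks in hPSC against 5 to 7 in the later stages of batch 1, with 2 for WT PP and 4 for A5-KO PP. ZEB2 had no peak in hPSC, between 1 and 2 at the later stages and for WT PP, and 5 for A5-KO PP. VIM had 1 peak each in PP, hILO and A5-KO PP and none elsewhere. KRT7 had 2 peaks each in hPSC and WT PP only. KRT18 had no peak in either list of batch 2, while KRT19 lacked one in DE and A5-KO PP. The number of the 10 transcripts with a peak was 8, 7, 9, 9, 8 and 7 in that order of lists, while 59.7%, 56.7%, 50.6%, 56.4%, 62.6% and 81.5% of all genes with a peak in any list had one. A transcript without a listed peak can lack the mark or lack the reads to show it, which these lists cannot tell apart.

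Peaks that overlapped between lists were joined into 51 sites, of which 5 occurred in all 6 lists and 21 in 1 list only. The 5 recurrent sites were the stop codon and the distal 3′ UTR of CDH1, the start of the 3′ UTR of EPCAM, and the stop codon and the distal 3′ UTR of CDH2. At a p-value below 1e-05 in the rows of the peaks, only 1 of the 5, the stop codon site of CDH1, was in all 6 lists. As deposited, the 2 cadherins had the same layout, with a pair of recurrent sites on each. ZEB1 and ZEB2 each had a site before the stop codon that was listed in DE, PP, hILO, WT PP and A5-KO PP but not in hPSC. The 30 bases around a GGAC, the core of the m6A consensus, are printed for the stop codon sites of CDH1 and CDH2 and the EPCAM site, listed in all 6 lists, for the ZEB1 and ZEB2 sites listed in 5, and for KRT18, whose site near the stop codon was listed in hPSC, DE and hILO. They were read from the GRCh38 genome on the strand of the transcript, 5′ to 3′, with GGAC in capitals; those of CDH2 and ZEB2 were chosen after the peaks were seen, as the GGAC covered in the most lists.
CDH1, chr16:68833488-68833517, plus strand, 3′ UTR: gaggacgactaggGGACtcgagagaggcgg
EPCAM, chr2:47386670-47386699, plus strand, 3′ UTR: atgtgtgtgcgtgGGACgaagacatctttg
CDH2, chr18:27952113-27952142, minus strand, 3′ UTR: gaacttggtttttGGACaagtacaaacaat
ZEB1, chr10:31526942-31526971, plus strand, coding: cacagggcgactcGGACgagagagagagtt
ZEB2, chr2:144389510-144389539, minus strand, coding: gagatcactccatGGACgatagttcggagg
KRT18, chr12:52952223-52952252, plus strand, coding: gacccgggcagagGGACagcgccaggccca
The GGAC lay 4 nt after the stop codon in CDH1, 25 nt after it in CDH2 and 72 nt after it in EPCAM. It lay 74 nt before the stop codon in ZEB2, 225 nt before it in KRT18 and 307 nt before it in ZEB1. The GGAC of CDH1, EPCAM and CDH2 was inside a peak in all 6 lists, that of ZEB2 in DE, PP, hILO and A5-KO PP, that of ZEB1 in PP, hILO and WT PP, and that of KRT18 in hPSC and hILO. In EPCAM, ZEB1 and ZEB2 the base after the printed GGAC is G, so it does not match the full m6A consensus, whose last base is A, C or T. In CDH1, CDH2 and KRT18 it does match.

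By the midpoint of each peak on the isoform with the longest coding sequence, 6 of the 126 peaks lay in the 5′ UTR, 43 in the coding sequence and 34 in the 3′ UTR, and 30 had their midpoint within 200 nt of the stop codon. The other 43 lay on exons of other transcripts of the gene, 13 in a UTR and 30 in a transcript without a coding sequence. CDH1 had 15 of its 21 peaks in the 3′ UTR and CDH2 12 of 24, whereas ZEB1 had 17 of 26 in the coding sequence and 1 in the 3′ UTR. None of the 29 keratin peaks had its midpoint in the 3′ UTR of the chosen isoform, but 18 of them lay off that isoform and could not be scored on it, among them an hILO peak of KRT8 at chr12:52897187-52897336, in a UTR of another isoform.

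The stop codon site of CDH1 spanned chr16:68833339-68833713 in hPSC and in hILO, starting at the same base in DE, PP and A5-KO PP and ending at 68833738, 68833763 and 68833863 there. The peak covered 575 nt in WT PP and 525 nt in A5-KO PP, and 375 to 425 nt in the lists of batch 1. The distal CDH1 site had its midpoint 1365 to 1402 nt after the stop codon, and in WT PP 3 further narrow peaks followed it at 1652, 1752 and 1840 nt. A site with its midpoint in the coding sequence, at −700 and −712 nt from the stop codon, was listed in hPSC and DE but not in PP or hILO. Both lists of batch 2 had a peak joined to it whose midpoint lay on an exon of a transcript without a coding sequence, and that of A5-KO PP ended at 68823373, just before the hPSC and DE peaks began. A 5′ UTR site was listed in hPSC and WT PP only.

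The 2 CDH1 sites and the EPCAM site kept their place in every stage. EPCAM, on chromosome 2, was marked at chr2:47386585-47386734 in hPSC and at overlapping places in the other lists, the midpoint lying 47 to 97 nt after the stop codon. An EPCAM site at the 5′ end occurred in PP and hILO, another, in a UTR of another isoform at chr2:47369312-47369511, in hPSC and PP, and a last, downstream on another isoform, only in the lists of batch 2. CDH2 was marked across its stop codon by 200 nt in hPSC, 275 nt in DE, 400 nt in hILO, 350 nt in WT PP and 475 nt in A5-KO PP, and in PP by a pair of peaks of 200 and 50 nt. CDH2 had a peak across its start codon in PP and in the 5′ UTR in WT PP, joined into 1 site, and a pair of peaks in the middle of the coding sequence in A5-KO PP only.

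The set of ZEB1 sites that were listed differed between stages. In hPSC its only peaks, at chr10:31318495-31318871 and chr10:31318897-31319096, lay at the start of the gene on exons of transcripts without a coding sequence, and sites there were also listed in DE and PP but in no later or batch 2 list. From DE on, peaks also lay in the coding sequence, and the site before the stop codon covered 300 nt in DE, 450 nt in PP, 450 nt in hILO, 175 nt in WT PP and 100 nt in A5-KO PP. ZEB2 had its recurrent site at chr2:144389518-144389642 in DE. In A5-KO PP it had 4 further peaks that each spliced several upstream exons together and were listed in no other population. VIM had a different position in each list that held it, in the 5′ UTR in PP and off the longest isoform in hILO and A5-KO PP, so no VIM site recurred.

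**Figure D1:**
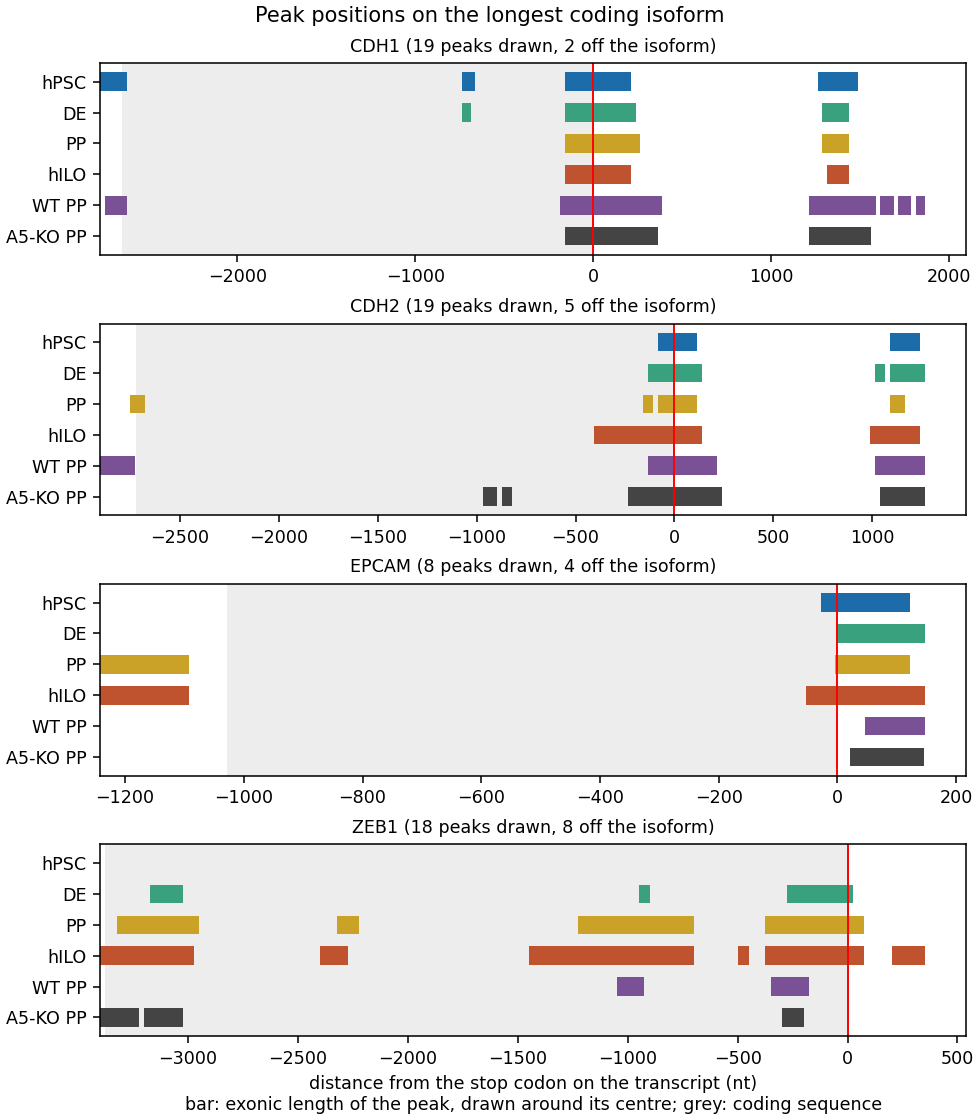
Positions of the peaks of CDH1, CDH2, EPCAM and ZEB1 in each population, as distance from the stop codon (red line) along the longest coding isoform in nt; each bar has the exonic length of a peak drawn around its centre, and the grey area is the coding sequence. The bars at the stop codon and in the distal 3′ UTR recur in all 6 lists for CDH1 and CDH2, while hPSC has no ZEB1 bar because both of its peaks lie off this isoform.

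KRT8 had the most variable set among the keratins, with 7 sites and 16 peaks, of which 6 peaks were in hILO. Its most recurrent sites were chr12:52904947-52905046, in the coding sequence in hPSC, DE, PP and hILO, and chr12:52901076-52901300, which by its midpoint was coding in hILO and WT PP and lay off the longest coding isoform in PP and A5-KO PP. KRT8 (52897187 to 52949954, minus strand) and KRT18 (52948871 to 52952906, plus strand) overlap on chromosome 12. The KRT18 site at chr12:52949889-52949963, listed in PP and hILO, overlapped the annotated start of KRT8 at 52949954. Both keratins have many processed pseudogenes, and a read was given 1 place by the aligner, so their reads are uncertain. KRT19 was marked at the same site in PP, in the coding sequence, and in hILO, off the longest isoform, and at another place in hPSC and WT PP.

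The consensus DRACH (H stands for A, C or T, R for a purine, A or G, and D for A, G or T), searched on the transcript strand, occurred in 101 of the 126 peaks, or 80.2%, against 90.8% of all peaks and 87.2% of all peaks once weighted to the same lengths. GGAC, which is counted within DRACH wherever the next base is A, C or T, occurred in 60 peaks, or 47.6%, against 55.0% of all peaks and 47.1% at the same lengths. The peaks of these transcripts were shorter than the rest, with a median exonic length of 125 nt against 175 nt. The DRACH share ranged from 60% in WT PP to 96% in hILO. A motif match describes the sequence and does not place a modified base.

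The read values of the lists need care, because in long runs of rows the counts did not belong to the peak named in the row. Neighbouring peaks of a gene at most 50 nt apart should hold similar input reads, yet over all rows their input correlated with a Spearman's rho of only 0.31 to 0.43 across the 6 lists, a description across peaks and not a test. When rows were read a constant number of places earlier within each run, from 1 to 13 places in most runs that could be read, rho rose in the displaced runs from 0.28 to 0.33 as deposited to 0.44 to 0.59, and in the runs with no displacement it was 0.51 to 0.75. The number of places was chosen by this same similarity of input reads within a gene, so that rise follows by construction and is no check. A comparison not used to find the displacement moved the same way, since the input reads of displaced peaks shared between the lists compared correlated at 0.17 to 0.31 as deposited and at 0.44 to 0.52 after reading the estimated rows. Mitochondrial transcripts, which are abundant in cells, had 82 peaks with a clear and displaced row, and the estimated row held more input reads than the row of the peak for 73 of them and fewer for 9, with medians of 8387 and 130 reads. None of them was in WT PP, where no mitochondrial peak had a clear row, so this comparison does not cover that list. The row was clear for 80.1% to 89.6% of peaks in batch 1 but for only 55.2% for WT PP and 57.7% for A5-KO PP. Of the 126 peaks, 30 were clear with no displacement, 60 were clear with one, and 36 were not clear. Below, reads are given from the estimated row, with those of the peak's own row beside the main ones, and peaks whose row was not clear have no value. Coordinates, strand and gene IDs fitted each other in every list. Every listed row had an adjusted p below 0.05 and a log2 enrichment of at least 0.585 in its own row, so whether a peak was listed rests on those row values too. The cause of the displacement was not tested.

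CDH1 in batch 1 had no displacement, so its values stand as deposited. Its stop codon site held 1301 input and 20602 IP reads in hPSC. DE had 271 and 1105, PP 728 and 4128, and hILO 461 and 1763. The authors' log2 enrichment, IP over input, was 2.61, 2.51, 2.22 and 2.11 in that order. These lay at the 92.4th, 89.3rd, 78.1st and 82.4th percentile of their lists, so the site was among the strongly enriched peaks of each stage. The distal site was weaker in every stage, with a log2 enrichment of 1.90, 1.38, 1.35 and 1.02. Each list is scaled on its own, so to compare stages the log2 ratio of IP to input reads was centred on the median of its list. On that scale the stop codon site stood at 0.69 ± 0.04 (counting error, 1 SE) for hPSC, 0.67 ± 0.10 for DE, 0.31 ± 0.06 for PP and 0.52 ± 0.08 for hILO. The step from DE to PP, −0.36 with a counting error of 0.11, was the largest of the 3, and the step from PP to hILO was 0.21. The distal site stood at −0.03 in hPSC and between −0.45 and −0.56 in DE, PP and hILO. In A5-KO PP, read 1 row earlier, the stop codon site held 1496 input and 3821 IP reads (617 and 986 in its own row) and stood at −0.83, and the distal site at −0.37. The row was not clear in WT PP, so the knockout cannot be compared with its control at either CDH1 site.

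EPCAM had no displacement in batch 1 either. Its site after the stop codon held 1469 input and 8736 IP reads in hPSC. DE had 4339 and 5404, PP 1185 and 2425, and hILO 2737 and 4949. The log2 enrichment of 1.18, 1.44, 1.30 and 1.07 was lower than at the CDH1 stop codon site in each stage, and the centred ratio was below the list median throughout, at −0.72, −1.04, −1.15 and −0.56. A site near the start of the transcript was more enriched than the one after the stop codon, with a log2 enrichment of 1.86 from 18 input reads in PP and 1.71 from 71 in hILO. The EPCAM site in a UTR of another isoform had the highest EPCAM ratio of batch 1 in PP, with a log2 enrichment of 2.37 and a centred ratio of 2.54 ± 0.50 from 8 input reads, and stood at 0.61 ± 0.25 in hPSC from 36. In A5-KO PP the row of the peak after the stop codon held 18 input and 20 IP reads, while the estimated row held 3655 and 1936, which gave a centred ratio of −3.10. That is percentile 2.01 of the ratios in its list, a low value for a listed peak. The row was not clear in WT PP, so the knockout cannot be compared with its control at this site. The downstream EPCAM site, clear in both lists of batch 2, stood at −1.64 ± 0.22 for WT PP and −2.04 ± 0.46 for A5-KO PP. That difference of −0.40 was within the counting errors.

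CDH2 was displaced in most lists. Its stop codon site had a centred ratio of −0.25 ± 0.12 in hPSC (162 input reads, 24 in its own row) and −0.28 ± 0.07 in hILO (560, 53 in its own row), at the 31.2nd and 31.8th percentile of the ratios in those lists, while the row was not clear in DE and PP. In WT PP the row of the peak held 4 input reads and the estimated row 123, with a centred ratio of 0.19 ± 0.14. The estimated row of A5-KO PP held 816 input reads against 5 at the peak itself, and the ratio was −0.73 ± 0.06. The distal CDH2 site read −0.60 in hILO, 2.01 ± 0.79 for WT PP and −1.26 ± 0.12 for A5-KO PP, but the WT PP value rests on 3 input reads.

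ZEB1 was marked before its stop codon, with a ratio that depended on the rows read in PP and hILO. The site held 44 input and 187 IP reads in DE, where there was no displacement, 244 and 1829 in the estimated row in PP, and 402 and 2713 in hILO, and the rows of the peaks themselves held 4 and 25 in PP and 85 and 230 in hILO. The centred ratio was 0.71 ± 0.24 for DE, 0.71 ± 0.10 for PP and 1.34 ± 0.08 for hILO. All 3 stood above the median of their lists, and hILO exceeded PP by 0.63. In the rows of the peaks the centred ratio was 0.18 in PP and 0.01 in hILO, a difference of −0.17. The sign thus changed with the rows read, and no direction is drawn from PP to hILO. In batch 2 the estimated row had only 2 input reads for WT PP and 0 for A5-KO PP, against 211 and 7 in the rows of the peaks, with counting errors of 0.93 and 2.06, so its ratio there is poorly determined. The 2 hPSC peaks at the start of the gene had a log2 enrichment of 1.74 and 2.04 from 23 and 10 input reads.

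ZEB2 was marked at its recurrent site from few reads. The estimated row held 5 input and 37 IP reads in DE, 11 and 158 in PP, and 4 and 82 in WT PP. The row of the peak instead held 3564 input reads in DE and 4306 in WT PP, reads that belong to other peaks by the estimate. The centred ratio was 1.31 ± 0.66 in DE, 1.54 ± 0.44 in PP and 2.09 ± 0.70 in WT PP. VIM had no displacement in PP, where 120 input and 1308 IP reads gave a centred ratio of 1.25 ± 0.14, nor in A5-KO PP, where 17 and 48 gave −0.74 ± 0.40.

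**Figure D2:**
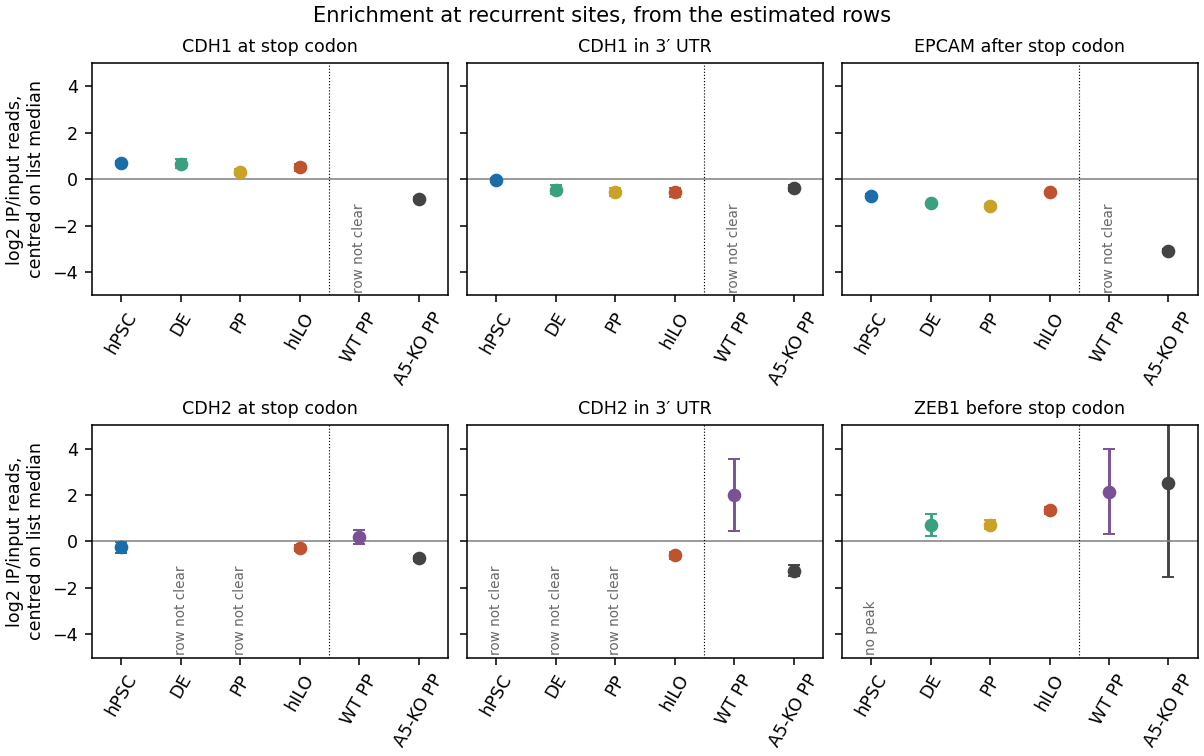
Log2 ratio of IP to input reads, centred on the median of each list, at 6 sites of CDH1, EPCAM, CDH2 and ZEB1 in each population, from the rows estimated to hold their reads; bars are 95% counting intervals and the dotted line parts the batches. In batch 1 the CDH1 stop codon site and the ZEB1 site lie above 0 and the EPCAM site below it, and several positions carry no point because the row was not clear or no peak was listed.

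From one population to the next, peaks of these transcripts were shared when more than 50% of the exonic length of the later peak was covered by earlier peaks. Of the 16 peaks in DE, 11 (68.8%) were shared with hPSC, near the 64.7% of all DE peaks. Of the 27 peaks in PP, 8 (29.6%) were shared with DE, against 57.0% of all PP peaks. Counted from the DE side it went the other way, as 11 of the 16 DE peaks (68.8%) were shared with PP, against 46.7% of all DE peaks. The unshared PP peaks included the one at the start codon of CDH2 and 2 coding peaks of ZEB1 that were wider in PP than in DE. Of the 25 peaks in hILO, 13 (52.0%) were shared with PP, against 45.6% of all peaks. Of the 21 peaks in A5-KO PP, 9 (42.9%) were shared with WT PP, against 46.8%. A peak counted as unshared can still overlap, and with any overlap 13 PP peaks met a DE peak.

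A shared peak was called when its log2 value differed by at least 1 between lists. With the enrichment as deposited, 1 shared peak was called from hPSC to DE, 1 from DE to PP, 2 from PP to hILO and 8 from WT PP to A5-KO PP, where 11.3%, 15.6%, 17.3% and 66.9% of all shared peaks were called. The centred ratio of the deposited counts called 0, 3, 1 and 8, against 11.3%, 14.7%, 16.1% and 62.7% of all shared peaks. As most of these values came from displaced rows, no direction is drawn from them. With the centred ratio at the estimated rows, 1 of 7 shared peaks with clear rows was called from hPSC to DE, 0 of 5 from DE to PP, 0 of 9 from PP to hILO and 2 of 5 from WT PP to A5-KO PP, against 6.22%, 7.89%, 8.9% and 46% of all such peaks. No statement about these transcripts is drawn from counts this small. The called peaks were the KRT18 site near the stop codon, 1.33 higher in DE than in hPSC, the KRT8 site at chr12:52901226-52901275, on an exon of a transcript without a coding sequence in A5-KO PP, 3.32 higher there than in WT PP, and the distal CDH2 site, which was −3.27 in A5-KO PP relative to WT PP and had 3 input reads in WT PP. All 3 changed sign with the rows read, as the deposited enrichment gave −0.59 for KRT18, −4.88 for KRT8 and 4.83 for the distal CDH2 site, so no direction is drawn for them either. At the estimated rows, over those 7, 5, 9 and 5 peaks, the median difference of the 10 transcripts' peaks was −0.21, −0.08, 0.21 and −0.40 in the 4 comparisons. That of all peaks was −0.06, −0.08, 0.17 and −0.34. The deposited enrichment gave −0.37, −0.21, −0.11 and −2.70, against −0.11, −0.12, −0.12 and 0.25 for all peaks, so no direction is drawn.

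Input reads inside peaks give a partial measure of transcript level, as reads per kb of peak after scaling each list to 1e+06 input reads in peaks, with a 95% exact Poisson interval that covers counting error only. The value depends on which stretch of the transcript was called, so it describes each list and is not a test of expression, and in these mixed cultures fewer cells of a type and less RNA per cell cannot be told apart. For that reason levels are compared at the same site. The CDH1 stop codon site stood at 435 (412 to 460) for hPSC, 53.8 (47.5 to 60.6) for DE, 245 (228 to 264) for PP and 43.2 (39.3 to 47.3) for hILO. It was thus lower in DE and hILO than in hPSC and PP, and those intervals did not overlap. The EPCAM site after the stop codon stood at 1229, 2295, 1357 and 481 in the same order, highest in DE and lowest in hILO. The ZEB1 site before the stop codon stood at 11.6 (8.46 to 15.6) in DE, 77.6 (68.2 to 88.0) in PP and 31.4 (28.4 to 34.6) in hILO. PP was the highest of the 3 by the estimated rows and the lowest by the rows of the peaks, which gave 11.6, 1.27 and 6.64. ZEB2 stood at 3.17 in DE and 5.72 in PP at its recurrent site, with intervals that overlapped.

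The keratins gave fewer sites that can be compared. The KRT18 site near the stop codon stood at 1114 in hPSC, 16.7 in DE and 1167 in hILO, and the rows of the peaks gave 407, 14.3 and 166. The upstream KRT18 site stood at 355 in PP and 37.5 in hILO, from 124 and 80 reads, against 2278 and 77.3 in the rows of the peaks. The KRT19 site shared by PP and hILO stood at 49.1 and 783, against 26.2 and 52 in the rows of the peaks, and only part of it was covered in hILO. KRT8 stood at 9663 in WT PP at the site where A5-KO PP stood at 28.3, while the other KRT8 peak of A5-KO PP stood at 36501, so neighbouring values of this gene differ widely and no direction is drawn from them. The row of the WT PP peak held 0 input reads and 51 IP reads, against 32188 and 18306 in the estimated row. The CDH2 stop codon site stood at 18.5 (15.3 to 22.0) in WT PP and 135 (126 to 145) in A5-KO PP, where the rows of the peaks held 4 and 5 reads. Over all CDH2 peaks with a clear row the order was the reverse, 267 for WT PP and 135 for A5-KO PP, and the sites within WT PP ran from 0.63 to 1077, so no direction is drawn for CDH2 either.

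ALKBH5, the disrupted gene, had 3 peaks at each stage of batch 1, 4 for WT PP and 5 for A5-KO PP; no row was clear for it in batch 2, so its reads do not check the knockout label. The populations were also checked by peaks on marker transcripts. POU5F1 and NANOG, which hold the pluripotent state, had peaks in hPSC and DE only, PDX1 and NKX6-1 of pancreatic progenitors in PP, hILO, WT PP and A5-KO PP, and the hormone transcripts INS, GCG and SST in hILO only. FOXA2 of endoderm had peaks in every list but hPSC. SOX17, an endoderm transcript, had 3 peaks in DE, none in PP or hILO, and 3 and 2 in WT PP and A5-KO PP. COL1A1, a collagen of fibroblasts, had 2, 2, 1, 1, 4 and 1 peaks in the order of the lists used above, COL3A1 had 9 in PP, 3 in hILO and 1 in A5-KO PP, and the endothelial PECAM1 had 5 in A5-KO PP only. The 2 collagens thus went different ways in PP, and the part of other cells in the marks of the 10 transcripts was not tested. The lists held 29083 to 55219 peaks, with 6987612 to 28463998 input and 30723097 to 79822815 IP reads inside them.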

How the data were processed

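Reads had been trimmed (fastp) and aligned (HISAT2, GRCh38) by the authors, who called peaks with exomePeak2 on the 2 IP and 2 input libraries of each population together. The deposited lists give, per peak, IP and input read counts (whole numbers, pooled over libraries), the authors' log2 enrichment of IP over input, and a deposited p-value and adjusted p-value. The 10 transcripts and the lists of other genes were chosen with earlier results of these data known, and every transcript is named. Groups were taken from the sample labels. Peaks were placed on GENCODE 44 isoforms (longest coding sequence) and compared as exonic bases on the same strand, with Python 3.11.15, pandas 2.3.3, NumPy 2.4.6, SciPy 1.17.1, pysam 0.24.0 and samtools 1.23.1; figures used matplotlib 3.10.9. Ratios of counts had a pseudocount of 1, and counting errors added 0.5 to each count.

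The row offset between peak and counts (from −20 to 5 tried) was estimated along each list from the similarity of input reads of peaks on the same gene, using rows up to 30 numbers apart, and was called clear at a posterior of 0.95; the step was chosen after seeing the data. On simulated lists, hPSC for example, with 6 displaced blocks among 36659 peaks, 99.1% of rows were clear and 100% of these were right. Real lists had fewer clear rows. With pooled values no test between populations was possible. Thresholds, overlaps, read minimums, motif and count row were varied. Columns of other samples in the lists: 0.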

Additional observations from a re-analysis of the deposited data

How the results depend on the processing

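Of 50 summary values recomputed under an alternative, 29 stayed within 1.5 times. The 126 peaks of the 10 transcripts became 83 at a p-value below 1e-05, 57 below 1e-10 and 76 at an IP/input of at least 3, while the count of transcripts with a peak, summed over lists, went from 48 to between 35 and 48; at a p-value below 1e-05, transcripts in all 6 lists went from 5 to 2 and sites from 5 to 1. Asking for 50 or more input reads on both sides, shared peaks went from 11 to 4 (hPSC to DE), 8 to 3 (DE to PP), 13 to 6 (PP to hILO) and 9 to 1 (WT PP to A5-KO PP), and called peaks to 0, 0, 1 and 1. With any overlap, DE to PP had 13 shared peaks and PP to hILO 4 called ones. With the centred ratio of the deposited counts, called peaks were 0 (hPSC to DE), 3 (DE to PP), 1 (PP to hILO) and 8 (WT PP to A5-KO PP, as deposited). With the estimated rows, an alternative added after seeing the data, they were 0 (DE to PP), 0 (PP to hILO) and 2 (WT PP to A5-KO PP). Counting GGAC in place of DRACH gave 60 peaks against 101. Restricting to bases shared by all lists of a transcript left 25860 of 78324 input reads. Stricter thresholds, read minimums and shared bases leave fewer peaks or reads by construction, and any overlap admits more; for the changes of ratio and of row the cause was not tested. No paired analysis was possible because each list pools the 4 libraries of its population; leaving out a replicate and a replicate block were not run for the same reason. By the estimated rows, the ZEB1 values of batch 2 and the ZEB2 value of WT PP rest on 0 to 16 input reads. The rows of the peaks held more, and the cause of the low counts was not tested. A displaced or unclear row limits 96 of the 126 peaks.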

Other observations

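Other transcripts of epithelial and mesenchymal identity were counted from lists not picked for how they moved. Of 38 further epithelial transcripts (tight junction, desmosome and splicing regulators among them), 32 had a peak in some list and 19 in all 6, with 29, 27, 25, 23, 28 and 28 marked from hPSC, DE, PP and hILO to WT PP and A5-KO PP. DSP, a core protein of desmosomes, and PPL, which links filaments to them, carried the most peaks, 45 each over the 6 lists. Of 30 further mesenchymal transcripts, 28 had a peak in some list and 6 in all 6, with 17, 22, 16, 18, 21 and 21 marked in the same order. Of all genes with a peak in some list, 59.7%, 56.7%, 50.6%, 56.4%, 62.6% and 81.5% had one in those lists and 33.0% in all 6, against 76.3%, 71.1%, 65.8%, 60.5%, 73.7% and 73.7% of the epithelial list (50% in all 6) and 56.7%, 73.3%, 53.3%, 60%, 70% and 70% of the mesenchymal list (20%), both of which also count genes with no peak. NES, an intermediate filament of progenitors, had 31 peaks and the receptor PDGFRA 23. Of 8 cadherin partners, all but 1 were marked in every list (87.5%), with AFDN at 58 peaks and CTNND1, which binds the cadherin tail, at 47.

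The transcripts whose IP/input pattern lay nearest to CDH1, by the Euclidean distance of the log2 ratio summed over the peaks of a gene, were NAV1 (0.065), LSG1 (0.15) and GPR107 (0.17) over 5 lists at the estimated rows among 3767 candidates. As deposited, over 6 lists and 5577 candidates, they were MYORG (0.21), ZNF317 (0.24) and an unnamed Ensembl gene (0.26). For CDH2 the nearest were GATC (0.75), THG1L (0.82) and GRPEL2 (0.86) as deposited, and TNIP1 (0.10) and the pair AKNAD1 and CLCC1 (0.15), which share peaks, over 4 lists at the estimated rows. For VIM they were BSN (0.17), ZNF74 (0.19) and CCDC18-AS1 (0.23) as deposited over 3 lists, 1 of which, hILO, had no clear row for VIM; at the estimated rows, over the other 2 lists, they were ST6GALNAC2 (0.17) and a pair of unnamed Ensembl genes (0.17 each). The nearest names changed with the rows read for CDH1, CDH2 and VIM.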
